A study of Rattus norvegicus with 8 samples.

Results

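In the outer medulla of rat kidneys, ethylene glycol given together with phlorizin was set against phlorizin alone. The comparison is the difference of 2 arrays out of 8, 1 on each side, taken for every probe set as the log2 value with ethylene glycol and phlorizin minus the log2 value with phlorizin. Of the 24834 probe sets of the deposited table, 13163 reached the median of all values (7.54) on at least 1 of the 8 arrays and were kept, and 9315 of these had a gene name. With 1 array a side there is no replicate error and no p-value. A difference of 1 served as the threshold for counting, which is a 2-fold difference in signal if the values are on the log2 scale.

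The study addressed how inhibition of glucose reabsorption relates to the formation of kidney stones. All animals were male Sprague-Dawley rats, aged 10 weeks, with free access to food and water, and each kidney was split into cortex and outer medulla before RNA was extracted. The groups used here are untreated controls, rats given ethylene glycol and alfacalcidol over 2 weeks (EG below), rats given phlorizin without EG, and rats given EG together with phlorizin. The labels give no dose or route, and they do not say how many animals an array stands for, or whether the zones of an animal sit on arrays of the same treatment. EG always includes alfacalcidol, so the parts of the 2 agents cannot be told apart, and the phlorizin array that serves as the reference here carries phlorizin as well.

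Ethylene glycol is oxidised in the liver to oxalate, which is filtered and forms calcium oxalate crystals in the tubule. Alfacalcidol is a precursor of active vitamin D and raises calcium uptake from the gut. Phlorizin blocks the sodium-glucose cotransporters SGLT1 and SGLT2 of the proximal tubule. The outer medulla holds the straight end of the proximal tubule (segment S3), the thick ascending limb and the medullary collecting duct, and it works close to the limit of its oxygen supply.

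The zone label held on both arrays. On the phlorizin and the EG with phlorizin array respectively, Slc12a1, the salt cotransporter of the thick ascending limb, read 17.94 and 17.70. The water channel of the collecting duct, Aqp2, read 18.15 and 17.89. Slc5a2, which encodes SGLT2 of the cortical proximal tubule, read 5.46 on the phlorizin array of the outer medulla and lower still with EG added, against 16.25 on each of the matching cortex arrays, and Slc12a3 of the cortical distal convoluted tubule read 4.12 and 4.93, against 16.07 and 16.29. These cortical transcripts lay in the range of the array's 23 background probe sets, which averaged 5.63 on the phlorizin array and 5.66 on the EG with phlorizin array, with highest values of 7.80 and 7.98. Over the 8 arrays the median value of transcripts was 7.39 to 7.58. Values near or under 7.98 are therefore dim, and a difference that starts from such a value says little about its size.

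With phlorizin present, EG went with 481 probe sets at least 1 higher, 3.65% of those kept, and 396 at least 1 lower, 3.01%. The difference reached 2 for 74 higher and 35 lower probe sets, and 3 for 20 higher and 2 lower ones. Both arrays were above every background probe set for 252 of the higher and 256 of the lower ones. For scale, the phlorizin and control arrays of the outer medulla, neither of which had EG, were 1 or more apart for 76 probe sets in the higher direction (0.577%) and 27 in the lower (0.205%). The standard deviation over probe sets was 0.56 for EG under phlorizin and 0.31 for phlorizin against control. Of the 481 higher probe sets, 480 also lay above the control array and 356 (74.0%) by 1 or more, and of the 396 lower ones, 391 lay below it and 278 (70.2%) by 1 or more. The shared direction was nearly fixed in advance, because the phlorizin and control arrays were seldom 1 or more apart. With the control array as the reference the counts were 569 higher and 546 lower.

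The genes that stood highest encode an injury chaperone, a phosphate transporter, a lipoxygenase, cytokine-response genes and secreted proteins of scar tissue. Slc34a2, the sodium-phosphate cotransporter NaPi-IIb, read 8.69 with phlorizin and 13.02 with EG and phlorizin, against 9.04 on the control and 15.05 on the EG array. Clu, which encodes the secreted chaperone clusterin, read 14.47 and 18.64, against 14.65 on the control and 19.12 on the EG array. Alox15b, an arachidonate lipoxygenase, read 9.34 and 13.25, with 9.27 on the control and 12.99 on the EG array. The differences under phlorizin were 4.33, 4.16 and 3.91. In these 3 genes the phlorizin array lay close to the control and the EG arrays lay far above it, and only in Alox15b was the EG with phlorizin array the highest of the 4.

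The next genes in size form groups by function. Serpina3n, an acute-phase protease inhibitor, was 3.30 higher, and Socs3, the feedback inhibitor of JAK-STAT signalling, was 3.03 higher (6.85 to 9.88). Gpnmb, a lysosomal glycoprotein of macrophages and damaged epithelium, was 3.26 higher (7.36 to 10.62). Guca2a, which encodes the natriuretic peptide guanylin, was 3.10 higher (9.82 to 12.92). Tissue remodelling genes followed, with Mmp2 (gelatinase A) 3.03 higher, Inhba (the activin A subunit) 3.02, Cthrc1, a secreted protein of activated fibroblasts, 2.75, Col3a1 2.70 and Col1a1 2.62. The kainate receptor gene Grik2 was 2.83 higher, but its control array read 12.92 and its phlorizin array 11.07, so against the control the same array was only 0.97 higher. The proliferation gene Mki67 (2.77) and the ciliary gene Dcdc2 (2.65) complete the 15 largest differences among genes at least 1 above mean background on both arrays. On the phlorizin array, however, Serpina3n, Gpnmb, Socs3, Inhba, Cthrc1 and Mki67 were below the highest background probe set. The size and rank of their differences are therefore uncertain.

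For 10 further genes the phlorizin array was less than 1 above its mean background, so the printed difference depends on how dim values are treated. Gabrp, a GABA-A receptor subunit, read 5.50 with phlorizin and 12.33 with EG and phlorizin, and 5.86 and 13.66 on the control and EG arrays. Trpv5, through which calcium enters distal nephron cells, read 4.49 and 10.99, with 5.48 and 13.76 on the control and EG arrays. Havcr1, which encodes the tubule injury marker KIM-1, read 5.59 and 11.02, with 6.56 and 14.26 on the control and EG arrays. With the phlorizin value raised to that array's mean background, the differences were 6.69 for Gabrp, 5.36 for Trpv5 and 5.39 for Havcr1. The protease inhibitor A2m (5.74 higher), the macrophage elastase gene Mmp12 (3.72 after the same step), the microfibril gene Mfap4 (3.60) and the complement regulator Cfi (3.56) belong here too. Trpv6, a calcium channel related to Trpv5, had 2.29 after that step, Snai2, a transcription factor of mesenchymal cells, 2.38, and the matrix gene Fndc1 1.31. All 10 genes were in the background range on the phlorizin and control arrays and above it on the EG array. With EG and phlorizin, Trpv6 (7.92) and Fndc1 (6.94) were still below the highest background probe set, and the other 8 were above it.

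**Figure D1:**
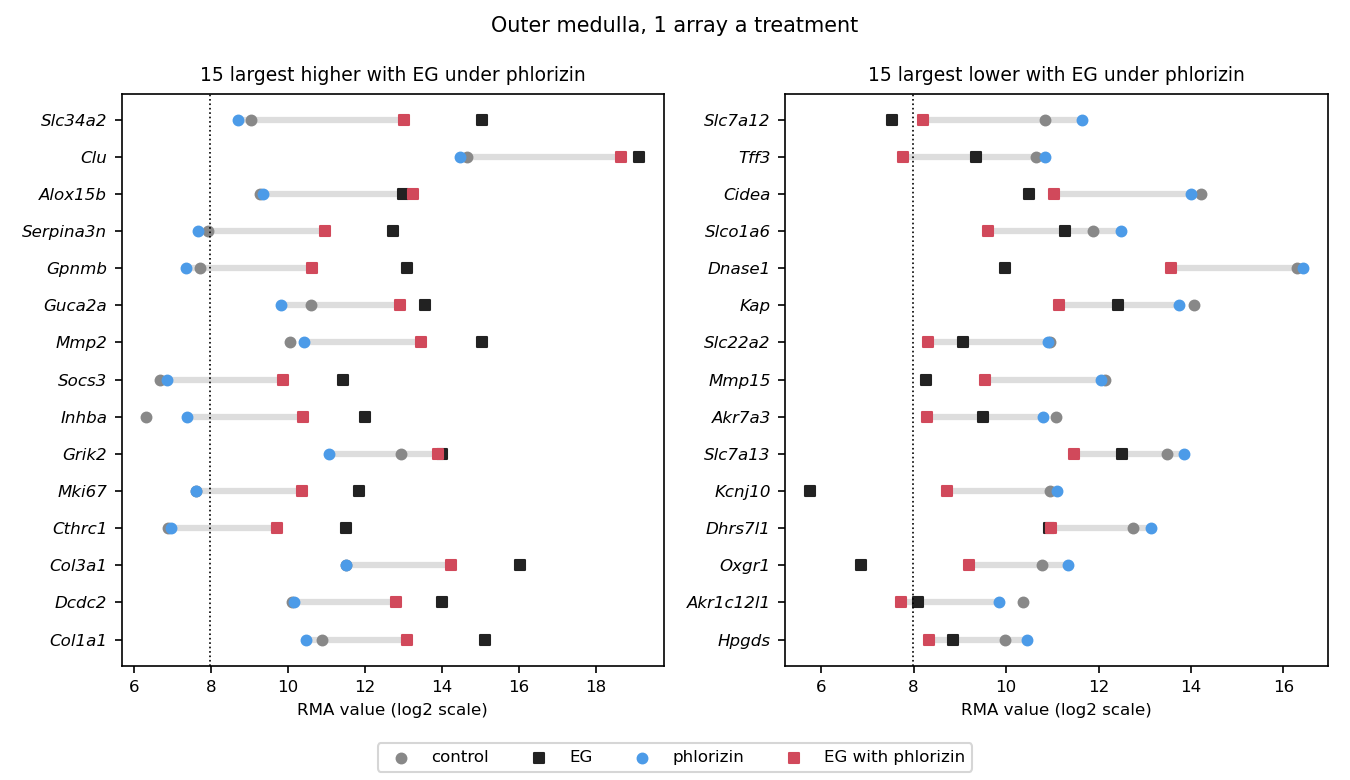
Values of the 4 outer medulla arrays (horizontal axis, RMA value on the log2 scale) for 30 genes, 15 highest and 15 lowest by difference, each point 1 array, with a grey bar from the phlorizin to the EG with phlorizin value and a dotted line at the highest background probe set (7.98). Control and phlorizin points lie close together for most genes (Grik2 is an exception at 12.92 and 11.07), and the EG points lie beyond the EG with phlorizin points for most of the higher genes, with Alox15b (12.99 against 13.25) the other way round.

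Among the lowest genes, transporters and enzymes of the proximal tubule were prominent. Slc7a12, an amino acid transporter, read 11.64 with phlorizin and 8.21 with EG and phlorizin, with 10.84 on the control and 7.53 on the EG array. Slco1a6, an organic anion transporter, read 12.48 and 9.62, with 11.88 and 11.28 on the control and EG arrays. Slc22a2, the organic cation transporter OCT2, read 10.90 and 8.31, with 10.95 and 9.07. The differences under phlorizin were -3.43, -2.86 and -2.59. In Slco1a6 the EG array differed from the control by -0.60 only, and the EG with phlorizin array lay below both.

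Other proximal genes among the 15 lowest were Kap, the androgen-regulated kidney protein, at -2.59, the aldo-keto reductase gene Akr7a3 at -2.50, and Slc7a13, a cystine and aspartate transporter of S3, at -2.38. Tff3, a trefoil peptide of epithelial repair, read 10.85 with phlorizin and 7.77 with EG and phlorizin, and 10.65 and 9.36 on the control and EG arrays. Cidea, a lipid droplet protein, read 13.99 and 11.03, with 14.21 and 10.50. Dnase1, a secreted nuclease, read 16.42 and 13.57, with 16.28 and 9.97. The 3 differences were -3.08, -2.96 and -2.84, and the EG with phlorizin array was the lowest of the 4 for Tff3 only. Genes of the more distal nephron in this set were Kcnj10, the basolateral potassium channel Kir4.1, at -2.38 (11.11 to 8.73), and Oxgr1, the 2-oxoglutarate receptor of intercalated cells, at -2.13 (11.33 to 9.20). The matrix protease gene Mmp15 (-2.51), the reductase genes Dhrs7l1 (-2.16) and Akr1c12l1 (-2.13), and the prostaglandin D synthase gene Hpgds (-2.12) complete it. With EG and phlorizin, Tff3 and Akr1c12l1 were below the highest background probe set, so the size of their differences is uncertain.

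For 10 further lower genes the EG with phlorizin array was less than 1 above its mean background, so their sizes depend on dim values. Dao, the peroxisomal D-amino acid oxidase of the proximal tubule, read 8.74 with phlorizin and 6.38 with EG and phlorizin, and 7.98 and 8.39 on the control and EG arrays. Zbtb16, a transcription factor induced by glucocorticoids, read 8.82 and 6.54, with 11.15 and 7.56, and phlorizin alone already differed from the control by -2.33. Thrsp, a regulator of lipid synthesis, had a difference of -2.49 (8.30 to 5.82). Nrip3 read 8.43 on the phlorizin array but 6.19 on the control and 5.92 with EG and phlorizin, so its difference of -2.51 was -0.27 when the control array was the reference. The others were AKR1C3l1 (-2.39), Cacng5 (-2.48, and -1.81 with that array raised to its mean background), Pzp (-2.23, and -2.18 after the same step), the protein C gene Proc (-1.95), the muscle ubiquitin ligase gene Trim63 (-1.83) and the serotonin receptor gene Htr4 (-1.72).

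Gene lists were described by their members' counts and median difference, beside the median of all kept probe sets, which was -0.02. A probe set was kept when any of the 8 arrays reached 7.54, so a member could enter a list through an EG array alone. This filter can therefore favour members higher with EG. Injury, acute-phase, complement and chemokine genes were on the higher side. Interferon and antigen presentation genes were near 0, with a median of 0.09 and 2 of 24 members at least 1 higher and 1 lower. In the tubule injury list, 11 of 22 measured members were higher by 1 or more, 2 were lower by as much, and the median was 0.99. Without the filter the median was 0.65. Beside Havcr1 and Clu, Timp1, an inhibitor of matrix proteases, read 8.23 with phlorizin and 10.79 with EG and phlorizin, with 7.91 and 12.64 on the control and EG arrays. The osteopontin gene Spp1 read 16.41 and 18.02, with 16.58 and 18.49, and Cd44, a hyaluronan receptor that also binds crystals, read 9.96 and 11.36, with 10.19 and 12.35. The members at least 1 lower were Tff3 and Gdf15, a stress cytokine, and Gdf15 read 7.45 with EG and phlorizin, -1.55 from the phlorizin array, but 7.61 on the control array. Lcn2, which encodes the injury marker NGAL, differed by only 0.65 (8.14 to 8.79), although it read 9.05 on the control and 13.42 on the EG array. Of the 12 members above every background probe set on both arrays, 5 were at least 1 higher.

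Acute-phase genes that respond to interleukin 6 type cytokines had a median of 0.86 (0.63 without the filter), with 11 of 22 members at least 1 higher and 1 lower. The oncostatin M receptor gene Osmr read 12.01 with phlorizin and 13.97 with EG and phlorizin, the ferroxidase gene Cp 14.38 and 15.92, and the transcription factor gene Cebpd 7.95 and 9.57. The fibrinogen chain genes Fga and Fgb were 1.74 and 1.41 higher, and Fgb stayed in the background range (5.46 to 6.87). The pathway's transcription factor gene Stat3 differed by 0.28, Junb by -0.14 and the secreted endotoxin-binding protein gene Lbp by -1.42. Of the 12 members above every background probe set on both arrays, 5 were at least 1 higher, with a median of 0.57. Letters of a STAT binding site (TTCNNNGAA, the same on both strands) were searched from 250 bases before to 50 after each RefSeq gene start of the GRCr8 build. They occurred in the promoters of 4 of 19 list members found in the table (21.1%), namely Fga, Fgb, Serpina3n and Tnfrsf12a, against 6.83% of the 8146 promoters of kept genes and 8.87% of all 33469 promoters. With the narrower letters TTCCNGGAA the counts were 1 of 19 against 1.42% of the promoters of kept genes. The promoter of Serpina3n is shown because its gene had the largest difference of those 4, written 5′ to 3′ along the gene with the matching letters in capitals.
Serpina3n (chr6:129088142-129088441, plus strand): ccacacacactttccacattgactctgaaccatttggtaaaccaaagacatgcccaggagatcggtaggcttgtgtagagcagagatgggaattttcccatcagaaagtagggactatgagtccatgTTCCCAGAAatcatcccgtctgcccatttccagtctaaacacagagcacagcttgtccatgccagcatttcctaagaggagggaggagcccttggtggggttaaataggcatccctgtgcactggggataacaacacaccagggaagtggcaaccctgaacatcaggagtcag

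Complement and coagulation genes had a median of 0.49, with 7 of 21 members higher by 1 or more and 0 lower by as much. Cd55, an inhibitor of complement convertases on the cell surface, read 7.01 with phlorizin and 9.03 with EG and phlorizin, and 7.23 and 9.11 on the control and EG arrays. Serping1, the C1 inhibitor, read 13.70 and 15.25, and the recognition subunit gene C1qb read 10.27 and 11.86. The clotting initiator F3 (tissue factor) was 1.29 higher, and C3 itself was 1.21 higher but read 5.95 and 7.17, within the background range. The plasminogen activator gene Plat differed by -0.20. With the control array as the reference the list's median was 0.77. Among chemokines and cytokines, 6 of 21 were higher by 1 or more, 2 were lower by as much, and the median was 0.56 (0.34 without the filter). Ccl6 read 9.86 and 11.96, the alarmin Il33 8.33 and 9.63, and the adhesion molecule Icam1 9.35 and 10.64. Cxcl13, a chemokine for B cells, read 10.79 with phlorizin and 9.51 with EG and phlorizin, with 9.21 and 10.49 on the control and EG arrays, so the EG difference was -1.28 with and 1.28 without phlorizin.

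Matrix genes formed the list with the highest median among lists with at least 5 measured members. At least 1 higher were 18 of 29 members and at least 1 lower were 0, with a median of 1.10, and 27 of 29 were above 0. Without the filter the median was 1.08. Col3a1, a chain of fibrillar collagen, read 11.52 with phlorizin and 14.22 with EG and phlorizin, and 11.51 and 16.03 on the control and EG arrays. Col1a1 read 10.48 and 13.10, with 10.89 and 15.13. The actin-binding protein gene Tagln of contractile cells read 11.85 and 14.22, with 11.85 and 15.74. In each of the 29 members the difference under phlorizin was smaller than without it, and the mean over members was 10.83 with phlorizin, 12.05 with EG and phlorizin, 10.60 on the control and 13.36 on the EG array. The smooth muscle actin gene Acta2 (1.78), the thrombospondin gene Thbs1 (1.68), the growth factor-like gene Ccn2 (1.67) and Col1a2 (1.49) were also at least 1 higher, whereas Col5a1 (-0.14), Postn (-0.00) and Thbs2 (0.02) were near 0. Elastin (Eln) was 0.50 higher, against 3.64 without phlorizin.

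Of 18 matrix proteases and inhibitors, 7 were higher by 1 or more, 0 were lower by as much, and the median was 0.76. Above every background probe set on both arrays were 12, of which 4 were at least 1 higher. Mmp15, a membrane-bound protease outside the list, was among the lowest genes (-2.51). Mmp2 read 10.41 with phlorizin and 13.45 with EG and phlorizin, and Mmp14, its membrane-bound activator, read 9.06 and 11.28. Adamts1 was 1.99 higher and the dim gene Mmp7 1.98, while Timp3 differed by -0.24. Among ligands of the TGF-beta family, Inhba read 7.38 and 10.40, Tgfb3 5.86 and 7.88, and Tgfb2 7.39 and 8.59, and Bmp3 was 1.58 higher. The main ligand Tgfb1 differed by 0.35, the inhibitory signal gene Smad7 by -1.11, and the list's median was 0.16 with 4 of 25 members at least 1 higher and 2 lower. The lower members were Smad7 and Gdf15, itself a ligand of this family. Of the 19 members above every background probe set on both arrays, 1 was at least 1 higher, Bmp3.

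Marker genes of macrophages were higher throughout. All 25 measured members were above 0, 13 were at least 1 higher, and the median was 1.02 (0.81 without the filter). Cd68, a lysosomal protein of macrophages, read 9.62 with phlorizin and 11.93 with EG and phlorizin, with 9.65 and 12.59 on the control and EG arrays. Cd14, a receptor for endotoxin, read 9.14 and 11.13, with 8.74 and 11.55, and the mannose receptor gene Mrc1 read 10.29 and 12.27, with 9.98 and 13.35. The mean over the 25 markers was 10.09 with phlorizin and 11.20 with EG and phlorizin, against 10.18 and 12.01. The microglia and monocyte marker Cx3cr1 (0.34) and Aif1 (0.37) had the smallest differences. Fibroblast markers had a median of 0.69 with 3 of 10 at least 1 higher, all 3 of them collagens of the matrix list. Mural cell markers had a median of 0.45 with 4 of 13 at least 1 higher. Without the filter the fibroblast median was 0.08 and the mural cell median 0.30. Of 15 neutrophil markers listed, 1 was measured above the filter, Ncf1 at 1.07, and the list's median was -0.14 without the filter. After the filter these marker lists had medians above 0, beside the injury, complement and matrix genes, and their part in those differences was not tested. In bulk tissue more cells of a type and more RNA in each cell cannot be told apart, and the same holds for lower values.

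Of 30 measured cell cycle genes 15 were higher by 1 or more, most of them from dim values, and 0 were lower by as much. The median was just under that threshold, against 1 of 30 and a median of 0.19 for the same comparison in the cortex. Without the filter the outer medulla median was 0.80. The difference was larger in the outer medulla than in the cortex for 26 of 30 members, and this was not tested. Mki67, the proliferation antigen Ki-67, read 7.60 with phlorizin and 10.37 with EG and phlorizin, and 7.62 and 11.83 on the control and EG arrays. Ccnb2, a mitotic cyclin, read 6.64 and 8.83, with 7.12 and 8.98, and the spindle protein gene Tpx2 read 7.19 and 8.82, with 7.59 and 10.47. Mcm4, a subunit of the replicative helicase, was 1.16 higher and bright enough to be above background on both arrays. These genes are dim in this tissue: 15 of the 30 were below every array's highest background probe set on both arrays, and of the 9 above it on both arrays 1 was at least 1 higher, with a median of 0.25. The kinase genes Cdk1 (-0.02) and Aurka (-0.11) and the G1 cyclin Ccnd1 (-0.27) were not higher.

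Promoters of mitotic genes are shown because the letters TTTGAA and CCAAT occurred more often in this list than among kept genes. Genes transcribed late in the cell cycle commonly carry a cell cycle homology region, TTTGAA, bound by the MuvB complex, and CCAAT boxes bound by NF-Y. Searched on both strands in the same 300-base windows, TTTGAA occurred in 11 of the 22 cell cycle promoters in the table (50.0%), against 11.5% of the promoters of kept genes and 18.3% of all promoters. CCAAT occurred in 17 of 22 (77.3%), against 37.7% and 37.5%, and both together in 10 of 22. Among the 12 promoters of members at least 1 higher, 8 held TTTGAA and 11 held CCAAT, and among the other 10 promoters 3 and 6 did. The 4 promoters below were taken in order of difference among members whose promoter held TTTGAA, so that match was fixed by the choice. They belong to the members with the largest differences, Mki67 (2.77), Cenpf (2.28), Ccnb2 (2.19) and Ect2 (1.91), of which Cenpf and Ect2 stayed within the background range. The place of TTTGAA differed, from base -214 in Ccnb2 to base 2 in Cenpf, counted from the gene start. Capitals mark TTTGAA and CCAAT, or their complement ATTGG, and in Mki67 the second TTTGAA shares a base with an ATTGG. Each is RefSeq sequence of the GRCr8 build, 5′ to 3′ along the gene.
Mki67 (chr1:199952544-199952843, minus strand): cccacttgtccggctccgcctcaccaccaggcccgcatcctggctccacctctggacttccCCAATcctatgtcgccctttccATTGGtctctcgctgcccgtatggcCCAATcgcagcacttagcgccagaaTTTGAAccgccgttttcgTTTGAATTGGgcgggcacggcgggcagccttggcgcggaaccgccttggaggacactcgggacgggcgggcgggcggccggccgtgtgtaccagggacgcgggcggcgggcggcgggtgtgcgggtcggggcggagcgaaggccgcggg
Cenpf (chr13:103760837-103761136, minus strand): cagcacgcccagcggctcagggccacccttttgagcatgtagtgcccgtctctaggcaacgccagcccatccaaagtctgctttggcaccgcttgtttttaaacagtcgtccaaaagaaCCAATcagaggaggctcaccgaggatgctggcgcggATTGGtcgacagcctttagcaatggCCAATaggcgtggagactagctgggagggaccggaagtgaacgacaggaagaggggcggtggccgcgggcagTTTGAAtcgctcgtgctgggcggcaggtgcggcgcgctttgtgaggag
Ccnb2 (chr8:79981609-79981908, minus strand): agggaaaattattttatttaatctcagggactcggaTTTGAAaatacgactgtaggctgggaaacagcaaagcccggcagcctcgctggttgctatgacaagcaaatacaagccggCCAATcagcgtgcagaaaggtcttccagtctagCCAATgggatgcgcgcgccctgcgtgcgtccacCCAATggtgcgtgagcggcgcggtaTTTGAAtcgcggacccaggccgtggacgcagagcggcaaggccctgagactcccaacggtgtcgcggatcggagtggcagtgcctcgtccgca
Ect2 (chr2:111966577-111966876, minus strand): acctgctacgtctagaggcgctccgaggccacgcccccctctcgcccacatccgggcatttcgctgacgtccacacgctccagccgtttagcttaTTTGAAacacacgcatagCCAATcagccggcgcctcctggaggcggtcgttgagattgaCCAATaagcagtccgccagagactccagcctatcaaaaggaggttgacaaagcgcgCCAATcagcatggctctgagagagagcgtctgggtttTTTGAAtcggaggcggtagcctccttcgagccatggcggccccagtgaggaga

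Each of the 4 windows held 3 or 4 CCAAT or ATTGG matches and 1 or 2 TTTGAA matches. A match describes letters in the window and not binding. Letters of HNF4 (CAAAGTNCA, in 1.12% of promoters of kept genes) occurred in 1 of 10 promoters of the proximal S3 markers described next, in 2 of 16 of the genes with the largest higher differences and in 0 of 19 of those with the largest lower ones. Letters of HNF1 (TAATNATTA, 0.417%) occurred in 0 of 10, 0 of 16 and 2 of 19 in the same order, and letters of AP-1 (TGANTCA, 5.16%) in 1 of 10, 2 of 16 and 0 of 19.

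Markers of the proximal S3 segment had the lowest median of all lists with at least 5 members, -1.10, with 7 of 12 members at least 1 lower and 1 at least 1 higher. Without phlorizin, EG went with a median of 0.23 in the same list and 0 of 12 at least 1 lower. Every one of the 12 members had a more negative EG difference with phlorizin than without, and in 9 of the 12 the EG with phlorizin array was the lowest of the 4 outer medulla arrays. The mean over members was 10.11 on the control, 10.44 on the EG, 10.15 on the phlorizin and 9.19 on the EG with phlorizin array. Slc7a13 read 13.85 with phlorizin and 11.47 with EG and phlorizin, and 13.48 and 12.51 on the control and EG arrays. Slc27a2, a fatty acid transporter and acyl-CoA synthetase of peroxisomes, read 9.69 and 7.61, with 8.84 and 9.19. Slc6a18, an apical amino acid transporter, read 10.48 and 9.28, with 10.78 and 10.85. In Slc27a2 and Slc6a18 the control, EG and phlorizin arrays lay above the EG with phlorizin array, and the EG array was not below the control.

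Other members followed the same order. The aminoacylase gene Acy3 differed by -1.12, Cyp4a2, a fatty acid hydroxylase, by -1.09, Slc22a22 by -1.26 and Slc3a1, a subunit of the cystine transporter, by -0.93, where the EG array had stood 0.83 above the control. Ggt1, the brush border enzyme of glutathione breakdown, differed by -0.31. The exceptions were Cyp7b1 (1.04) and the dim genes Slc5a1 (0.51) and Cyp2e1 (0.19). Of the 8 members above every background probe set on both arrays, 5 were lower by 1 or more, 1 was higher by as much, and the median was again -1.10. With the control array as the reference the median was -1.11. Without the filter the S3 median was -0.74, against -1.03 for the intercalated cell markers described below. In the cortex the comparison under phlorizin gave a median of -0.35 with 2 of 12 at least 1 lower. Without phlorizin, several of these markers were lower with EG in the cortex. On the control and EG arrays of the cortex Slc7a13 read 15.40 and 8.46, and Slco1a6 13.49 and 7.72. Slc27a2 read 16.19 and 14.47, and Slc6a18 13.22 and 12.84. The contrast between the arms given above therefore refers to the outer medulla only.

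Transcripts of cortical cell types were set beside these values. Several S3 markers were themselves brighter in the control cortex than in the control outer medulla. Slc27a2 read 16.19 against 8.84, Slc7a13 15.40 against 13.48 and Cyp4a2 17.46 against 13.02. The 17 markers of segments S1 and S2 had a median of -0.45, with 5 at least 1 lower and 2 at least 1 higher, and 9 of them were below the highest background probe set on both arrays. Of the 5 above it on both arrays, 0 were at least 1 lower and 1 was higher, and the median was 0.25, on the other side of 0. Slc34a1, the main phosphate transporter of these segments, read 7.80 with phlorizin and 8.24 with EG and phlorizin in the outer medulla and 18.41 and 18.20 in the cortex. The endocytosis receptor gene Lrp2 read 11.32 and 10.85. Podocyte markers had a median of 0.15 with 0 of 9 past 1 in either direction. Of the 892 probe sets at least 2 higher in the control cortex than in the control outer medulla, 112 (12.6%) were lower by 1 or more and 55 (6.17%) higher by as much, with a median of -0.18. The 773 probe sets at least 2 higher in the outer medulla had a median of -0.20, with 86 (11.1%) lower and 34 (4.40%) higher. Over all kept probe sets 3.01% were lower and 3.65% higher, so both sets passed 1 more often in either direction. The cortex-enriched set made up 28.3% of the 396 lower probe sets, against 6.78% of those kept. The outer medulla-enriched set made up 21.7% of them, against 5.87%. The part of zone-enriched transcripts in the S3 differences was not tested.

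**Figure D2:**
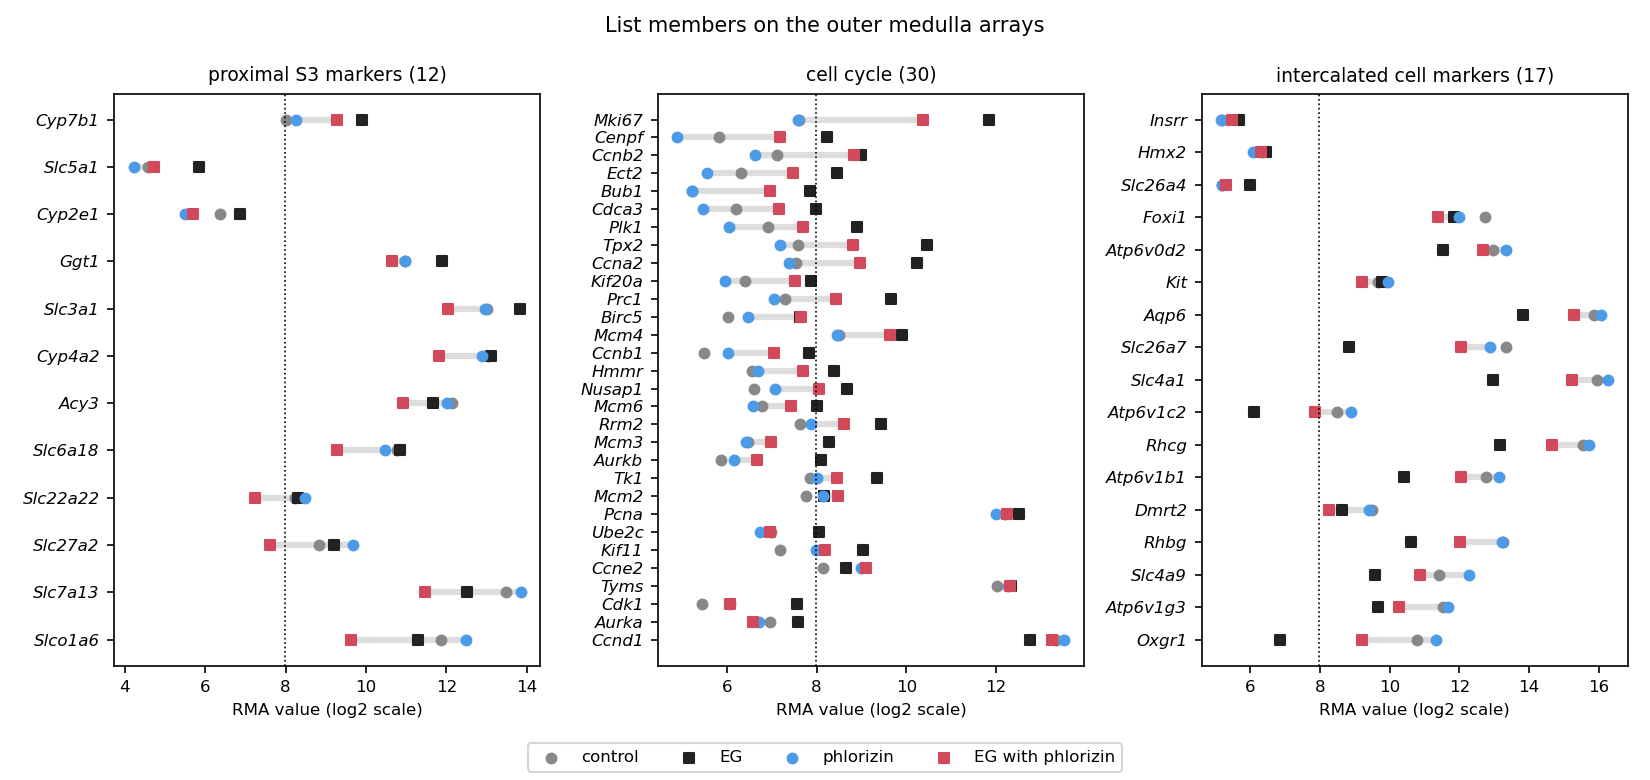
Values of the measured members of 3 lists on the 4 outer medulla arrays (horizontal axis, RMA value on the log2 scale; each point 1 array; grey bar from phlorizin to EG with phlorizin; dotted line at the highest background probe set, 7.98), ordered by the difference under phlorizin. In the S3 panel the EG with phlorizin point is the lowest of the 4 for 9 of 12 genes, in the cell cycle panel the bars point upward from dim values, and in the intercalated cell panel the EG array lies lower still for most genes.

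Metabolic genes of the proximal tubule were on the lower side as well. Gluconeogenesis and ammonia genes had 8 of 16 members at least 1 lower and 0 higher, with a median of -0.83. Of the 12 above every background probe set on both arrays, 5 were at least 1 lower, with a median of -0.45. Fbp1, fructose bisphosphatase, read 9.54 with phlorizin and 7.60 with EG and phlorizin, and 9.34 and 8.17 on the control and EG arrays. G6pc1, the catalytic subunit of glucose-6-phosphatase, read 10.22 and 8.57, with 10.42 and 6.95. The glutamine transporter gene Slc38a3 read 9.98 and 8.73, with 10.01 and 8.57, and Pck1, the key enzyme of gluconeogenesis, read 7.43 and 6.27 within the background range. Fbp1 was lowest with EG and phlorizin, while G6pc1 was lowest with EG without phlorizin.

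Genes that handle oxalate and glyoxylate had a median of -0.61 under phlorizin, with 4 of 16 members at least 1 lower and 0 higher. Without phlorizin 5 of 16 were at least 1 lower and 1 higher, and although the median was 0.14, the mean over members went from 9.23 on the control to 8.78 on the EG array, beside 9.34 and 8.81 under phlorizin. The median under phlorizin was -0.40 with the control array as the reference and -0.35 without the filter. Hao2, a peroxisomal hydroxyacid oxidase, read 14.32 with phlorizin and 12.59 with EG and phlorizin, with 13.89 and 13.95 on the control and EG arrays. The dicarboxylate transporter gene Slc13a3 read 8.21 and 6.74, with 8.02 and 7.68. Slc4a1, an anion exchanger, read 16.27 and 15.24, with 15.96 and 12.97, and Grhpr, the glyoxylate reductase, differed by -0.98. Hao2 stood near the control level on the EG array and its difference under phlorizin was -1.73, whereas Slc4a1 was lower on both EG arrays. Of the 16 members, 7 were below the highest background probe set on both arrays, and the oxalate transporter gene Slc26a1 (4.92 and 5.04) was among them.

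Mitochondrial genes differed by little each but in 1 direction. All 26 measured respiratory chain genes were below 0, between -0.99 and -0.12, with a median of -0.68 and 0 members past 1. Ndufv1, a subunit of complex I, read 13.45 with phlorizin and 12.47 with EG and phlorizin, and Cox4i1, a subunit of cytochrome oxidase, differed by -0.99. Without phlorizin the median was -1.37 with 23 of 26 at least 1 lower, and in the cortex under phlorizin -0.20. Fatty acid oxidation genes had a median of -0.38 with 5 of 26 at least 1 lower. Ppara, the nuclear receptor that controls this pathway, read 10.59 and 8.81, and Ehhadh, a peroxisomal enzyme, 11.28 and 9.74. Glycolysis and hypoxia genes had a median of -0.37 with 1 of 25 at least 1 lower and 0 higher.

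Intercalated cells, which secrete acid or bicarbonate in the collecting duct, had the second lowest median, -1.03, with 9 of 17 markers at least 1 lower and 0 higher. Atp6v1g3, a subunit of the proton pump, read 11.68 with phlorizin and 10.27 with EG and phlorizin, and 11.54 and 9.65 on the control and EG arrays. Rhcg, an ammonia channel, read 15.73 and 14.67, with 15.56 and 13.15, and the bicarbonate transporter gene Slc4a9 read 12.26 and 10.88, with 11.42 and 9.59. Slc26a7, a chloride and bicarbonate exchanger of the basolateral membrane, read 12.87 and 12.04, with 13.35 and 8.82. For all 4 the EG with phlorizin array lay between the phlorizin and the EG array. The transcription factor Foxi1 of these cells differed by -0.59. Principal cell markers had a median of -0.26 with 3 of 13 at least 1 lower, among them the sodium channel subunit gene Scnn1a (-1.06) and the water channel gene Aqp4, while Scnn1b (0.61) and Aqp2 (-0.26) were not.

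The 13 markers of the thick ascending limb, the main tubule of this zone, had a median of -0.36 with 2 at least 1 lower (-0.61 with the control array as the reference), against -1.52 and 11 of 13 without phlorizin. Casr, the calcium-sensing receptor, read 11.30 with phlorizin and 9.29 with EG and phlorizin, with 11.59 and 7.71 on the control and EG arrays. Bsnd, the subunit of the chloride channels, read 13.14 and 11.47, with 13.04 and 9.96, and Umod, which encodes uromodulin, read 18.51 and 18.17, with 18.85 and 17.46. Slc12a1 (-0.24), Kcnj1 (-0.18) and Cldn16 (0.10) were near 0 under phlorizin. Values such as those of Umod approach the highest in the table, 19.7, where differences can be compressed.

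Calcium and sugar transport genes had list medians nearer 0. Vitamin D and calcium genes had a median of 0.17 with 4 of 20 at least 1 higher and 2 lower. Of the 14 above every background probe set on both arrays, 1 was at least 1 higher and 2 were lower, with a median of 0.03. Beside the channels Trpv5 and Trpv6, the exchanger gene Slc8a1 read 9.52 with phlorizin and 10.72 with EG and phlorizin. The calcium-binding protein gene Calb1 read 5.69 and 7.56, within the background range. These 4 genes act in sequence in calcium reabsorption of the distal nephron, at entry, binding and exit. Cyp24a1, the vitamin D hydroxylase, was in the background range on all 4 arrays (4.25 and 5.17 with phlorizin and with both agents), whereas it was 3.07 higher in the cortex under phlorizin. Among 14 sugar transporter genes the median was -0.30. The phlorizin targets Slc5a1 (4.22 and 4.73) and Slc5a2 were in the background range, Slc2a2 read 5.67 and 5.51, Slc2a1 13.87 and 13.64, and the insulin-regulated transporter gene Slc2a4 10.67 and 9.05.

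**Figure D3:**
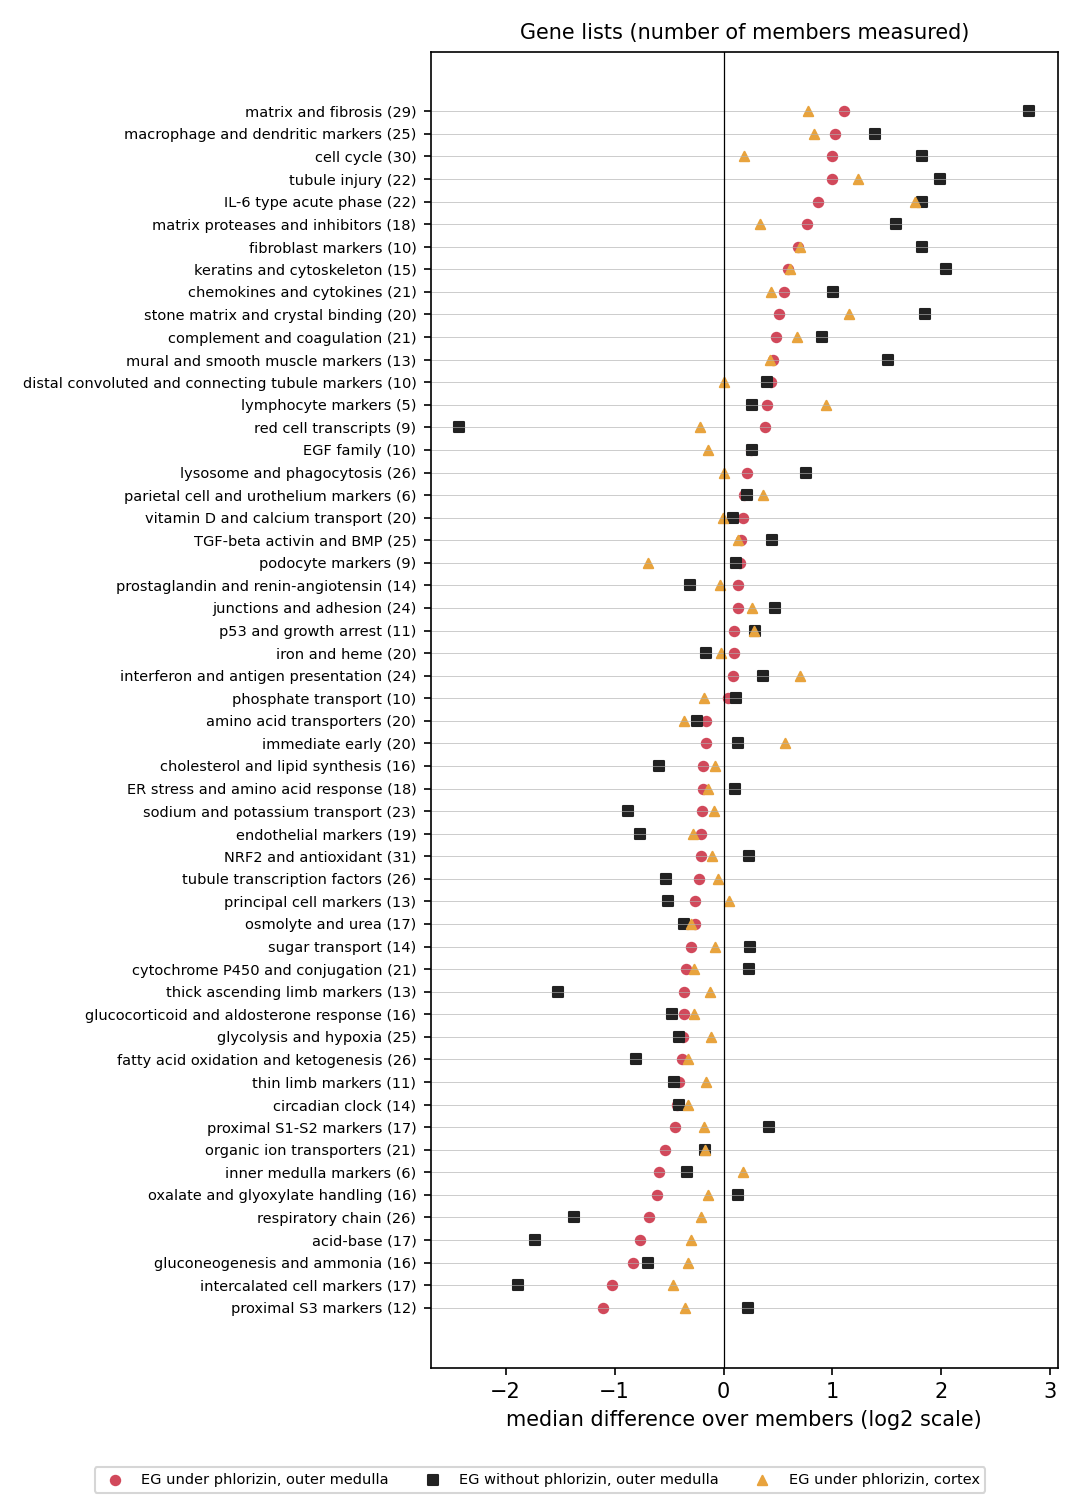
Median log2 difference over the measured members (number in brackets) of each list with at least 5 members, for EG under phlorizin in the outer medulla, EG without phlorizin in the outer medulla and EG under phlorizin in the cortex, ordered by the first. Matrix genes stand at the top (1.10) and proximal S3 markers at the bottom (-1.10), where the value without phlorizin (0.23) is on the other side of 0, and red cell transcripts show the widest gap between the arms (0.38 and -2.42).

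Set beside EG without phlorizin, which shares no array with it, the comparison under phlorizin held fewer differences in the same direction. EG without phlorizin had 1130 probe sets at least 1 higher (8.58%) and 1275 lower (9.69%). Of the 481 higher probe sets under phlorizin, 413 (85.9%) were also higher without it, which is 36.5% of the 1130, and of the 396 lower ones 259 (65.4%) were also lower, 20.3% of the 1275. On the other side by 1 or more were 2 of the 481 and 5 of the 396. The 1130 EG-higher probe sets had a median of 0.76 under phlorizin against 1.56, and the 1275 EG-lower ones -0.65 against -1.42, and since they were chosen on the second value of each pair it is the larger one in part by that choice. Across the 13163 probe sets, which are not independent, Pearson's r was 0.72 and Spearman's rho 0.62. Turned round, the 481 chosen under phlorizin had a median of 1.34 there and 2.08 without it, and the 396 lower ones -1.23 and -1.44.

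Some genes departed from that order. Of 9 red cell transcripts, 7 were at least 1 lower with EG without phlorizin, with a median of -2.42, and under phlorizin 1 was lower (Slc4a1) and 1 higher (Alas2), with a median of 0.38. Hbb, the beta globin gene, read 14.69 on the control, 11.72 on the EG, 15.18 on the phlorizin and 15.61 on the EG with phlorizin array. The alpha globin gene Hba-a1 read 17.10, 14.67, 17.25 and 17.36 in the same order. The EG array alone stood apart in both. Within the beta globin family, and within the alpha globin family, the genes are near-identical copies whose probes may share signal. Dnase1 and Smpx were lower in both arms but less under phlorizin (-2.84 against -6.31 and -1.68 against -4.77). In the other direction, the protease inhibitor gene Serpine2 differed by 0.65 against 3.89, the gap junction gene Gja1 by 0.62 against 3.61, the uroguanylin gene Guca2b by 1.41 against 4.48 and the cadherin gene Cdh6 by 0.73 against 3.51. Cltrn, a partner of amino acid transporters in the brush border, was -0.67 apart with and 2.26 without phlorizin. These genes were picked for this contrast, so their values are a description.

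A difference under 0.5 in size without phlorizin was seen for 32 (6.65%) of the 481 higher probe sets under phlorizin. The same held for 74 (18.7%) of the 396 lower ones. For scale, EG without phlorizin passed 0.58 upward in 2275 and downward in 2594 of all 13163 kept probe sets. For the 32 and 74 probe sets the gap between the arms was not tested. The largest named ones were Slc27a2 (-2.08), the prolactin receptor gene Prlr (-1.79), Hao2 (-1.73), the histamine-degrading enzyme gene Hnmt (-1.70) and Iyd (-1.65), which recovers iodide. Prlr read 9.54 with phlorizin and 7.75 with EG and phlorizin, and 9.35 and 9.46 on the control and EG arrays. Hnmt read 13.07 and 11.37, with 12.58 and 12.51. For Prlr, Hnmt and Hao2 the EG with phlorizin array stood alone below 3 similar arrays. For Afm (-1.62), Npy (-1.62) and Gdf15 (-1.55) the phlorizin array stood above the control, at 8.49 against 7.28 for Afm and 8.35 against 7.05 for Npy, and the differences from the control were -0.41, -0.32 and -0.16. Slc13a3 (-1.47) and Ift43 (1.52), a component of ciliary transport, complete the 10.

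**Figure D4:**
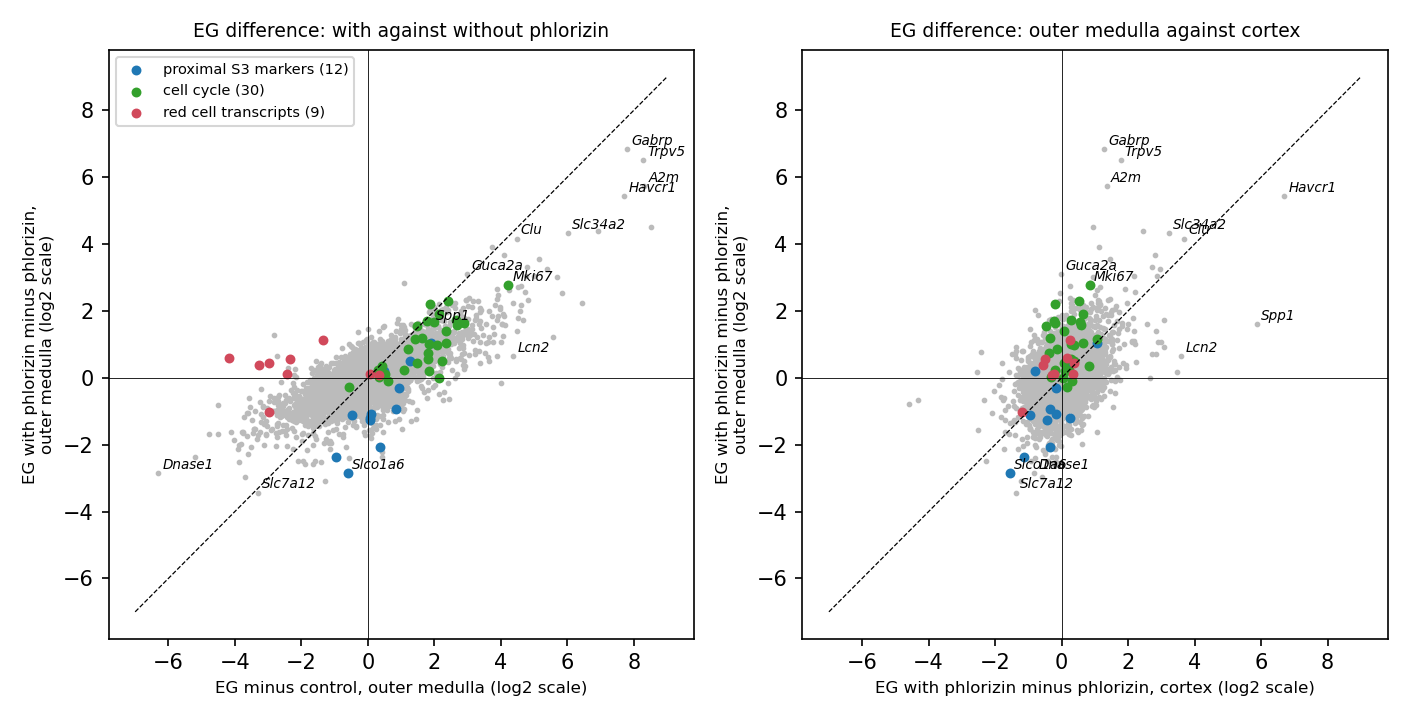
Each grey point is 1 of the 9315 named genes, with the log2 difference of EG with phlorizin minus phlorizin in the outer medulla on the vertical axis, against EG minus control in the outer medulla (left) or the same comparison in the cortex (right); the dashed line marks equality and coloured points are 3 lists. On the left most genes lie between the dashed line and 0 with S3 markers below and red cell transcripts above the cloud, and on the right Spp1 (5.87 in the cortex, 1.62 here) and Guca2a (-0.01 and 3.10) lie far from the line.

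In the cortex the same comparison under phlorizin gave 320 probe sets at least 1 higher (2.43%) and 204 lower (1.55%). Shared with the outer medulla were 131 higher ones, 27.2% of 481 and 40.9% of 320, and 42 lower ones, 10.6% of 396 and 20.6% of 204, and Pearson's r across probe sets was 0.42. Higher in the outer medulla and not in the cortex were Guca2a, Cd55 (2.02 against -0.79), Cthrc1 (2.75 against 0.26), Ccnb2 (2.19 against -0.21) and Serpinf1, an inhibitor of vessel growth (2.32 against 0.33). Spp1 was 5.87 higher in the cortex against 1.62, and the claudin gene Cldn4 2.65 against 0.00. Rgs16, a regulator of G protein signalling, was 2.83 higher against 0.70. On the phlorizin and EG with phlorizin arrays Spp1 read 10.50 and 16.37 in the cortex, and 16.41 and 18.02 in the outer medulla. Cldn4 read 8.32 and 10.96 in the cortex, and 13.27 on each of the matching outer medulla arrays. With EG and phlorizin both Spp1 and Cldn4 thus read higher in the outer medulla, whereas Rgs16 read higher in the cortex (9.96). Lower in the outer medulla and near 0 in the cortex were Kap (-2.59 against -0.12), Slc22a2 (-2.59 against -0.24), Mmp15 (-2.51 against -0.20) and Kcnj10 (-2.38 against -0.17). These genes were ranked by the gap between the zones, which was not tested.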

How the data were processed

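Per the labels, RNA of 8 samples, 1 per zone and treatment, was hybridised to Clariom S arrays for rat. The deposited values are expression values that the authors made with RMA, per the submitters' processing notes. Its version and settings are not given in the sources used here. Deposited values ran from 2.28 to 19.7, and the log2 scale is inferred from that range. No column of the deposited table lacked a sample.

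Of 24834 probe sets, 1646 without a transcript identifier were set aside. Of the remaining 23188, 15049 had 1 gene symbol in the platform annotation, 8139 had none, and none had several. For 10 symbols with several probe sets the one with the highest mean was used. Values were used as deposited. Probe sets were kept where at least 1 array read no less than the overall median, and differences were counted at 1 on the log2 scale. With 1 array per group no test was run and no p-value is given. The number of arrays limits the precision.

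Named are 11 fixed genes, the 15 largest differences in each direction with both arrays at least 1 above mean background and 10 more in each direction with 1 array under that line, up to 4 members of each of 57 lists (38 of functions, 19 of cell type markers), the 10 in each direction most unlike the arm without phlorizin and the cortex, and the 10 largest that were under 0.5 without phlorizin. Loci without a named gene were passed over. Other list members and the genes of the closing section were named after their values were seen. The comparison, the lists and the rule were chosen with earlier results of these data known. Promoters were matched by symbol to RefSeq sequences of the GRCr8 build. Alternatives covered quantile normalization, median centring, the filter, the threshold, the reference array, a floor at mean background and the choice of probe set. The arithmetic was tested on made-up values with known differences. Python 3.11.15, pandas 2.3.3, numpy 2.4.6 and matplotlib 3.10.9 were used.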

Additional observations from a re-analysis of the deposited data

Results flagged for a closer look

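Between the arms without and with phlorizin, 6 kept genes with a name differed by 1 or more in opposite directions in the outer medulla. Sptssb, a subunit of the enzyme that starts sphingolipid synthesis, differed by -1.25 with EG under phlorizin (8.54 to 7.29) and by 1.45 without phlorizin (7.96 to 9.41). Alas2, the erythroid enzyme of heme synthesis, differed by 1.12 under phlorizin (6.77 to 7.88) and by -1.35 without it, and its values under phlorizin were below the highest background probe set. Cxcl13 differed by -1.28 under phlorizin and by 1.28 without it, and Slco1a3, an organic anion transporter, by -1.53 and 1.02. The cartilage matrix gene Matn1 differed by 1.27 and -2.84, and the chemokine gene Ccl21, within the background range on all 4 arrays, by -1.01 and 1.07. Between the zones under phlorizin 1 gene did so, Coro6, at -1.63 in the outer medulla (10.51 to 8.88) and 1.06 in the cortex (6.37 to 7.44). Of 57 list medians, 11 had opposite signs in the 2 arms, 2 of them at least 0.5 in size under phlorizin and 9 smaller, among these the S1 and S2 markers (-0.45 and 0.41) and red cell transcripts (0.38 and -2.42). The median of the oxalate and glyoxylate list was -0.61 under phlorizin and 0.14 without it, although 4 and 5 of its 16 members were at least 1 lower. The median of the proximal S3 markers was -1.10 under phlorizin and 0.23 without it. Between the zones under phlorizin, the median of 6 inner medulla markers was -0.59 for the outer medulla against 0.18 for the cortex. Each was singled out because the single array pair on one side pointed up and the other down, and none of these differences was tested.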

How the results depend on the processing

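No paired analysis was possible because there is 1 array per group. The 6 counts and shares, of 481 higher and 396 lower probe sets and their overlaps, were classed as holding in 33 recomputations and as moved in 19. Counts classed as holding still shifted. With the control array as the reference there were 569 higher and 546 lower probe sets. Without a filter there were 619 and 503, and with the filter at 9 there were 359 and 347. At a threshold of 0.58 there were 1286 higher and 1512 lower probe sets, the shares of EG-higher and EG-lower probe sets without phlorizin that were shared were 40.0% and 38.7%, and the lower share in the cortex was 20.3%. At a threshold of 2 there were 74 and 35, with shares of 20.1% and 7.02% between the arms and 14.9% and 2.86% between the zones. The higher share between the arms was 33.4% after quantile normalization and 32.2% without a filter, and that between the zones 21.5% without a filter and 32.0% with the filter at 9. With both arrays above every background probe set, an alternative chosen after seeing the data, 252 higher and 256 lower probe sets remained, with higher shares of 30.7% between the arms and 32.1% between the zones. Of 58 medians, of 57 lists and of all kept probe sets, 11 changed sign in some setting. Of these, 9 were under 0.5 in size as reported, among them circadian clock genes (-0.43, and 0.33 with the control array as the reference), immediate early genes (-0.16 and 0.38) and principal cell markers (-0.26 and 0.13) in the same setting, and S1 and S2 markers (-0.45, and 0.25 with both arrays above background). The other 2 were neutrophil markers, at -0.14 without a filter, when dim members entered, and inner medulla markers, at 0.13 with the control array as the reference. Without a filter the medians of tubule injury genes (0.65), chemokines and cytokines (0.34) and fibroblast markers (0.08) were also under the reported ones by more than 1.5 times, and with the control array as the reference fatty acid oxidation genes had -0.57. The difference of a named gene crossed 1 in 75 of the recomputations, most often with the control array as the reference, where 24 genes were no longer past 1 and 19 were newly past it. The cause of these shifts was not tested. Signal over background limits the dim genes, such as those of the cell cycle (15 of 30 members below background on both arrays), the S1 and S2 segments (9 of 17) and the distal convoluted and connecting tubule (6 of 10).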

Other observations

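Several gene groups outside the account above differed in part. Keratins and cytoskeletal genes had a median of 0.59 with 3 of 15 at least 1 higher, against 2.04 and 14 of 15 for EG without phlorizin. Tmsb10, an actin-binding peptide, read 15.38 with EG and phlorizin, 1.38 above the phlorizin array, while Krt18 read 9.22 and 9.33, although it was 2.68 higher with EG without phlorizin. Immediate early genes had a median of -0.16 with 4 of 20 at least 1 higher, and this median was 0.38 with the control array as the reference. Myc read 8.65 and 10.79, with 8.01 and 11.02 on the control and EG arrays, Egr2 was 2.06 and the nuclear receptor gene Nr4a3 1.64 higher, and Egr1 differed by -0.55.

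Antioxidant genes had a median of -0.21 with 5 of 31 at least 1 higher and 2 lower. Gclc, the rate-limiting enzyme of glutathione synthesis, read 14.11 with phlorizin and 12.04 with EG and phlorizin, with 13.88 and 13.22 on the control and EG arrays, and Nqo1 differed by -1.09, while Nox4, a superoxide-forming oxidase, was 1.87 higher at dim values (5.59 to 7.47). Among transcription factors of the tubule, Hnf4a read 7.52 and 6.24, within the background range, and Esrrb 10.01 and 8.27, while Runx1 was 1.53 higher. The glucocorticoid-induced gene Fkbp5 read 11.90 and 9.86, with 12.22 and 9.78 on the control and EG arrays. The prostaglandin synthase gene Ptgs2 read 14.13 and 14.39, against 13.14 on the control and 10.94 on the EG array.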
